A study of Homo sapiens with 3 samples.

Results

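The genes of the human translation initiation factors were taken as all protein-coding genes of the GENCODE annotation of hg19 whose symbol starts with EIF followed by a digit, which gave 56 of 20175 protein-coding genes. The name covers more than the factors themselves. It also takes in the EIF2AK kinases that inhibit initiation, the EIF4E-binding proteins, and EIF5A and its paralogues, which act mainly in elongation. Binding at these genes was read from chromatin immunoprecipitation with sequencing (ChIP-seq) of MAX and of BMAL1 in MDA-MB-231 cells, an established human triple-negative breast cancer line. The cells carried no stated treatment other than cross-linking for 10 min in 1% formaldehyde, and each immunoprecipitation used 4 µg of antibody. There was 1 library for MAX (11545865 tags), 1 for BMAL1 (13866783 tags) and 1 of input chromatin (29308882 tags), so no value below has a replicate check. A gene was given every peak whose summit lay no more than 1 kb from one of its transcription start sites (TSSs), with all annotated transcripts used. The deposited lists held 13650 MAX peaks and 756 BMAL1 peaks, of which 7285 and 317 lay within 1 kb of a TSS of a protein-coding gene.

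Initiation begins when EIF2 carries the initiator tRNA and GTP to the small ribosomal subunit, where EIF1, EIF1A, EIF3 and EIF5 assemble. The EIF4F complex, made of the cap-binding protein EIF4E, the scaffold EIF4G and the RNA helicase EIF4A, brings the mRNA, and EIF5B joins the large subunit. MAX is the obligate partner of MYC and also pairs with other proteins of the same network such as MNT, while BMAL1 pairs with CLOCK in the circadian clock, and both kinds of dimer recognise the palindromic E-box CACGTG. Genes of protein synthesis, EIF4E among them, are well known as MYC targets.

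A selection of the E-boxes described here is shown with 12 bases to either side, on the + strand of hg19, with the CACGTG in capitals. The first 4 lie under peaks of both factors at EIF4A1 (chr17:7475837-7475866), EIF3A (chr10:120840325-120840354) and EIF5A2, which has a pair (chr3:170626571-170626600 and chr3:170626596-170626625). The E-boxes of EIF3E, the remaining gene with peaks of both factors, are not printed here, although its MAX peak is also among the strongest with an E-box. Leaving EIF3E aside, the next 5 lie near the strongest MAX summits that have an E-box within 100 bp, at EIF3B (chr7:2393706-2393735), in the first part of EIF4A1 (chr17:7477258-7477287), and at EIF2AK3 (chr2:88991322-88991351), EIF2B3 (chr1:45452429-45452458) and EIF3K (chr19:39109713-39109742). The last pair lies just upstream of EIF4E (chr4:99850339-99850368 and chr4:99850492-99850521), where neither list had a peak.
EIF4A1, MAX and BMAL1: ctgtcgcctccgCACGTGtgagagtgcagg
EIF3A, MAX and BMAL1: aaaggaaggagcCACGTGacctccccgcgg
EIF5A2 first, MAX and BMAL1: gctccgcccagtCACGTGaagagcgccctg
EIF5A2 second, MAX and BMAL1: ccctggcaacccCACGTGctgcggattagt
EIF3B, MAX: cgcccccgccccCACGTGacccgcgctgtc
EIF4A1 intron, MAX: ctgggtcgggccCACGTGgacccggcggca
EIF2AK3, MAX: ctcccgggttccCACGTGcggctgccgggg
EIF2B3, MAX: aggagcattcgaCACGTGtgtccctctgtc
EIF3K, MAX: cgaggaagaagtCACGTGgcagccggaaag
EIF4E first, no peak: ccagcttctggcCACGTGacggatatgtcc
EIF4E second, no peak: aaaaggactggtCACGTGgccgatgggtag

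MAX peaks were present at the promoters of most initiation factor genes. Of the 56 genes, 40 had at least 1 MAX peak, which is 71.4% (Wilson 95% interval 58.5 to 81.6, counting error only), against 36.2% of all protein-coding genes (7310 of 20175). Of these 40 genes, 32 had 1 peak and 8 had 2, giving 48 MAX peaks in all. BMAL1 peaks were few. They lay at 4 genes, EIF3A, EIF3E, EIF4A1 and EIF5A2, which is 7.14% (2.81 to 17.0), against 1.84% of all protein-coding genes (372). All 4 also had a MAX peak, as did 355 of the 372 protein-coding genes with a BMAL1 peak. Those 355 make up 1.76% of all protein-coding genes. Since the genes had been chosen with results of these data known, these shares are descriptions, and no test of the difference was made.

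Other parts of the translation machinery had MAX peaks at least as often. In a list of 40 further translation genes (elongation and release factors, poly(A)-binding proteins, the MTOR pathway and initiation factors with other names), 34 had a MAX peak (85%, interval 70.9 to 92.9) and 3 had a BMAL1 peak. The 3 were EEF1A1, the elongation factor that delivers aminoacyl-tRNA, at a BMAL1 fold enrichment of 5.13, the RNA helicase DDX3X at 15.0, and ABCF1 at 7.49. MAX peaks lay at 74 of 80 genes of cytosolic ribosomal proteins (92.5%, interval 84.6 to 96.5) and at 18 of 20 genes of aminoacyl-tRNA synthetases (90%, interval 69.9 to 97.2). BMAL1 peaks lay at 0 of these 80 and 0 of these 20 genes, with upper interval bounds of 4.58% and 16.1%. The interval of the initiation factor genes for BMAL1 overlapped both.

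**Figure D1:**
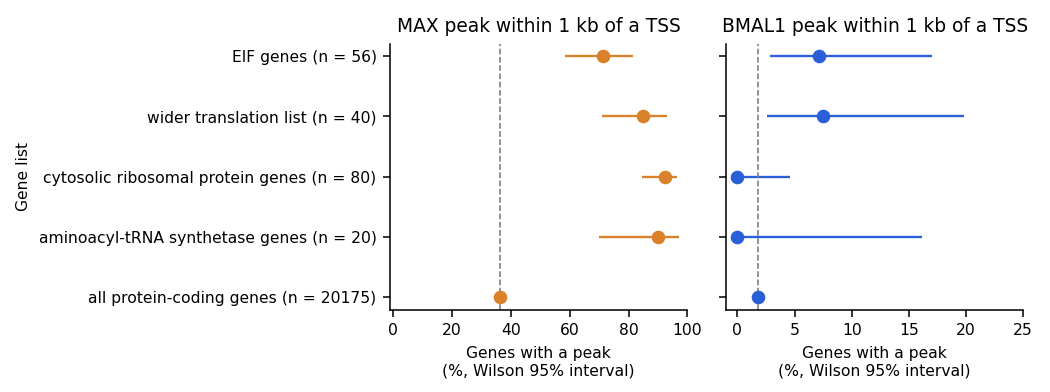
Share of genes, in percent, with a MAX peak (left) or a BMAL1 peak (right) within 1 kb of a TSS in 5 gene lists. Points are shares, bars are Wilson 95% intervals and the dashed line is the share over all protein-coding genes, 36.2% for MAX and 1.84% for BMAL1. The 4 translation lists lie above the line for MAX, and the initiation factor genes stand at 71.4% and 7.14%.

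The strength of a peak is given as its fold enrichment, the number of overlapping fragments at the summit (pileup) over the local background in the input. This background was at its genome-wide level for 11 of the 48 MAX peaks, the strongest ones of EIF3B and EIF4B among them. Ranks by fold enrichment can therefore differ from ranks by pileup. At the 48 MAX peaks of initiation factor genes the median fold enrichment was 11.1 (quartiles 9.35 and 15.2, range 5.71 to 29.6), and over all 7285 MAX peaks at coding promoters it was 10.2 (quartiles 8.21 and 13.2). An exact Poisson 95% interval on the pileup placed 10 of the 48 peaks above the median of all promoter peaks and 1 below it, while 37 intervals included it. That count was not made for all promoter peaks, so it does not set these 48 apart. The median peak rested on 19.5 fragments, so most differences in strength between single genes lie within counting error.

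**Figure D2:**
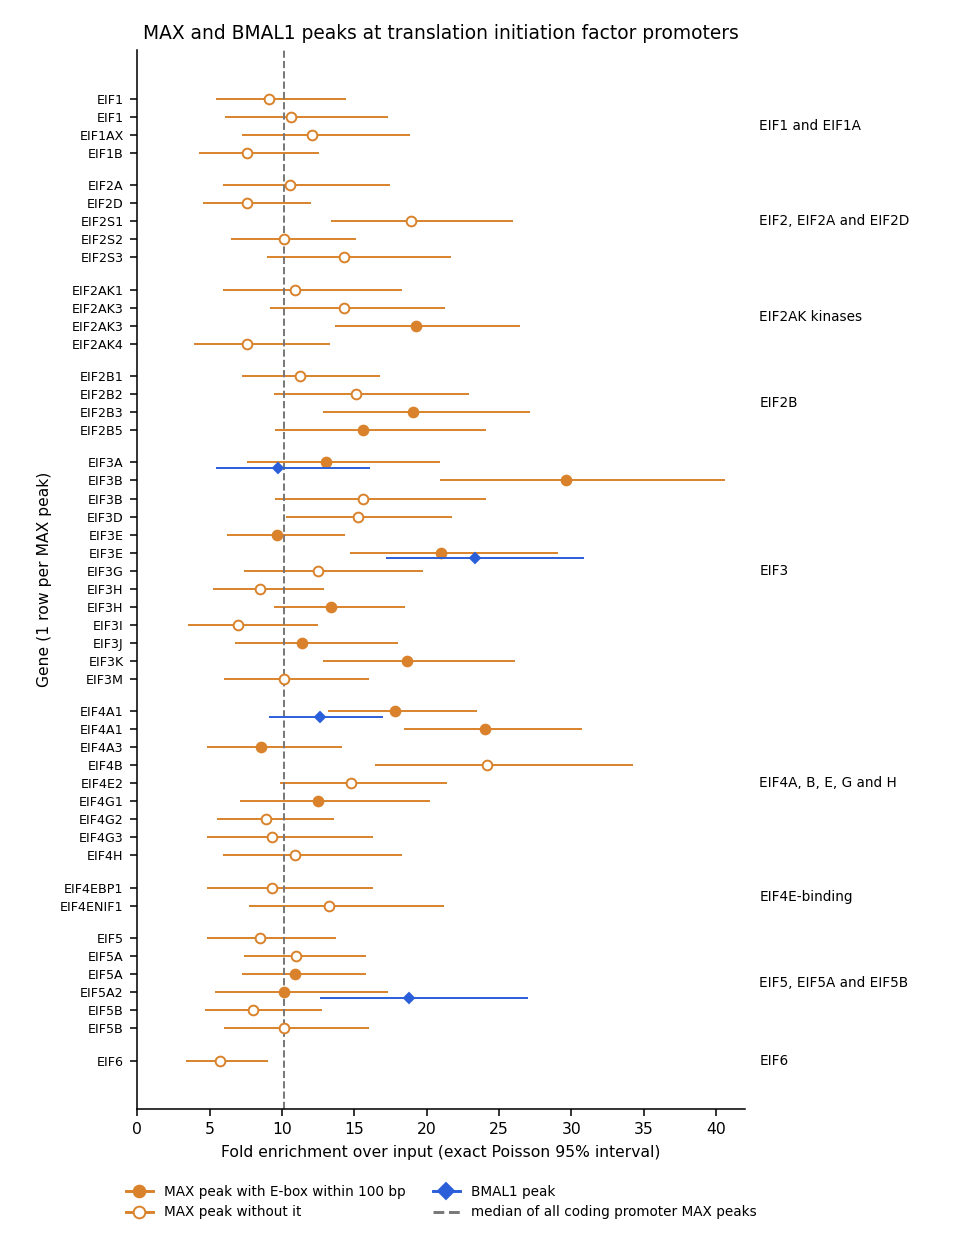
Fold enrichment over input of every MAX peak (circles) at an initiation factor gene, by gene and family, with the BMAL1 peak (diamonds) where one overlaps. Bars are exact Poisson 95% intervals on the pileup, filled circles have an E-box within 100 bp of the summit, and the dashed line is the median of all MAX peaks at coding promoters. EIF3B has the highest value at 29.6 and EIF6 the lowest at 5.71.

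**Figure D3:**
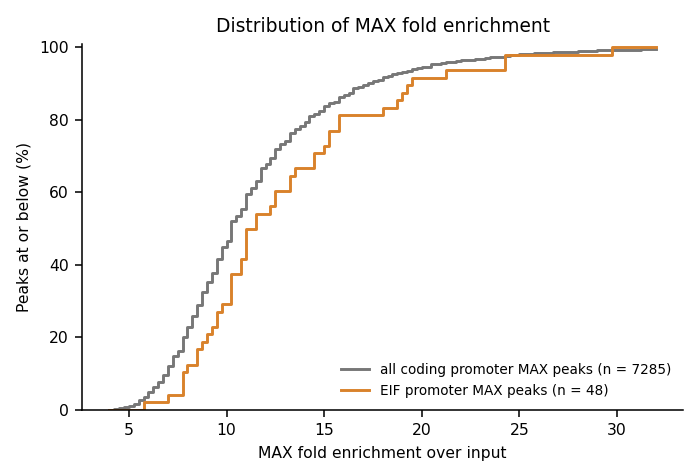
Cumulative share of MAX peaks, in percent, by fold enrichment over input, for the 48 peaks at initiation factor genes and for all 7285 peaks at coding promoters. The curve of the initiation factor genes lies to the right of the other through most of the range, with medians of 11.1 and 10.2.

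In the EIF1 and EIF1A family, whose founding members hold the scanning ribosome open, MAX peaks lay at EIF1, EIF1AX and EIF1B but not at EIF1AD or EIF1AY. The 4 peaks had fold enrichments of 7.62 to 12.1 and no E-box within 100 bp of the summit. EIF1AY lies on chromosome Y, where each list had 0 peaks. In the family of EIF2, EIF2A and EIF2D, 5 of 6 genes had a MAX peak, including all 3 subunits of EIF2 itself (EIF2S1, EIF2S2 and EIF2S3), and the exception was EIF2S3B. The strongest was at EIF2S1, the subunit that the stress kinases phosphorylate, with a pileup of 38 and a fold enrichment of 18.9 (interval 13.4 to 26.0). Its summit was 409 bp upstream of the EIF2S1 TSS and 87 bp upstream of that of ATP6V1D, a proton pump subunit. The peak cannot be assigned to one gene from its position. None of the 5 peaks of this family had an E-box within 100 bp.

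The 4 kinases that phosphorylate EIF2 differed. MAX peaks lay at EIF2AK1 (the heme-regulated kinase), EIF2AK3 (PERK, of endoplasmic reticulum stress) and EIF2AK4 (GCN2, of amino acid starvation), and none at EIF2AK2 (PKR, activated by double-stranded RNA), whose nearest MAX summit was 39195 bp away. EIF2AK3 had 2 peaks far apart. The one 532 bp upstream of its canonical TSS had a fold enrichment of 14.3 and no E-box within 100 bp. The stronger one (chr2:88990805-88991743, fold enrichment 19.3, interval 13.7 to 26.5) lay 258 bp upstream of an alternative EIF2AK3 TSS, 64312 bp from the canonical one, and 103 bp downstream of the TSS of RPIA, an enzyme of the pentose phosphate pathway. Its E-box was 42.5 bp from the summit.

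Of the 5 subunits of EIF2B, the factor that reloads EIF2 with GTP, EIF2B1, EIF2B2, EIF2B3 and EIF2B5 had a MAX peak. Their median fold enrichment, 15.4, was the highest among the families with more than 1 peak, with a range of 11.3 to 19.0. The EIF2B3 peak (chr1:45452002-45452527) had a pileup of 30 and a fold enrichment of 19.0 (interval 12.8 to 27.2). The canonical TSS was 93 bp downstream of its summit, and the E-box 83.5 bp away. The EIF2B5 peak had a fold enrichment of 15.6 with an E-box 22.5 bp from the summit, but its summit was 1158 bp upstream of the canonical TSS and 838 bp from the nearest one, the farthest of all the peaks assigned here. EIF2B4, the remaining subunit, fell just outside the rule. A MAX summit of fold enrichment 13.7 lay 1035 bp from its nearest TSS.

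EIF3, the largest initiation factor and the scaffold on the small subunit, had MAX peaks at 10 of its 14 genes. The 13 peaks had a median fold enrichment of 13.1 and 7 had an E-box within 100 bp of the summit. The strongest MAX peak of all the initiation factor genes was at EIF3B (chr7:2393420-2393883), an RNA-binding core subunit, with a pileup of 38, a fold enrichment of 29.6 (interval 21.0 to 40.7) and an E-box 97.5 bp from the summit. This summit lay 839 bp upstream of the canonical EIF3B TSS but 98 bp upstream of another annotated EIF3B TSS. It was 321 bp downstream of the TSS of SNX8, a sorting nexin gene. A second, weaker peak of fold enrichment 15.6 lay 112 bp upstream of the canonical TSS and had no E-box within 100 bp. The interval of the strongest peak overlapped those of 16 other peaks and lay wholly above those of 31. EIF3D had a MAX peak of fold enrichment 15.2 (pileup 30, interval 10.3 to 21.7) with no E-box anywhere inside it. EIF3K, a small peripheral subunit, had a peak of fold enrichment 18.6 (chr19:39109403-39109952, interval 12.8 to 26.1), 166 bp upstream of its canonical TSS and 140 bp upstream of the TSS of the kinase gene MAP4K1, with an E-box 65.5 bp from the summit. EIF3J, a loosely bound subunit, had a peak of 11.4 in its first intron, 531 bp downstream of the canonical TSS, with an E-box 30.5 bp away. No MAX peak was listed at EIF3F (nearest summit 76683 bp away), EIF3L (29991 bp), EIF3C (87711 bp) or EIF3CL (88312 bp). EIF3C and its copy EIF3CL share 1886 of 1951 51-base words around their start sites (96.7%), so reads there mostly match both copies and the absence of a peak carries little information.

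The genes of EIF4F and its helpers were split within single gene families. EIF4A1, the helicase, had 2 strong MAX peaks and its paralogue EIF4A2 had none, with the nearest summit 19090 bp away. EIF4E, the cap-binding protein, had none, with the nearest summit 51522 bp away, while its paralogue EIF4E2 had a peak of fold enrichment 14.8. The EIF4E2 summit lay 16 bp downstream of the canonical TSS and 148 bp upstream of that of TIGD1. EIF4E1B and EIF4E3 had none either. All 3 EIF4G genes had a peak, with the strongest at EIF4G1, the main scaffold, at 12.5 (interval 7.13 to 20.3). This summit lay 160 bp upstream of the canonical TSS and had 2 E-boxes within 100 bp, separated by 71 bp. EIF4B, which stimulates the helicase, had a peak of 24.2 (chr12:53399663-53400537, pileup 31, interval 16.4 to 34.3), 148 bp upstream of its canonical TSS. Its only E-box in the peak was 128.5 bp from the summit. EIF4A3, the helicase of the exon junction complex, had a weaker peak of 8.58 (pileup 15) centred 3.5 bp from its E-box.

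At EIF4A1 the 2 MAX peaks flanked the start of the gene. The upstream one (chr17:7475615-7476175) had a pileup of 49, a fold enrichment of 17.8 (interval 13.2 to 23.5) and a summit 252 bp upstream of the canonical TSS. The other (chr17:7476295-7477699) had the highest pileup of all 48 peaks, 63, and a fold enrichment of 24.0 (interval 18.5 to 30.7). Its summit lay in an intron of the canonical transcript, 1104 bp downstream of the canonical TSS and 85 bp downstream of an alternative one. The E-boxes were 39.5 and 25.5 bp from the summits.

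Among the 4 genes of EIF4E-binding proteins, which compete with EIF4G for EIF4E, EIF4EBP1 (9.35) and EIF4ENIF1 (13.3) had a MAX peak. EIF4EBP2, with a summit 1421 bp away, and EIF4EBP3 did not. The EIF4ENIF1 peak lay 6490 bp from the canonical TSS, at an alternative one, and 55 bp upstream of SFI1. In the last group, EIF5, EIF5A, EIF5A2 and EIF5B had 6 peaks of 7.99 to 11.0 and EIF5AL1 had none. EIF5A, the hypusine-containing factor, had peaks of 11.0 and 10.9, and the latter, 573 bp downstream of the canonical TSS, had an E-box 92.5 bp from its summit. EIF6, which keeps the ribosomal subunits apart, had the lowest fold enrichment, 5.71 (interval 3.38 to 9.02). Its pileup of 18 stood over the highest local background of the 48 peaks.

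Each of the 4 BMAL1 peaks at initiation factor genes overlapped a MAX peak. Among all 372 protein-coding genes with a BMAL1 peak, 355 also had a MAX peak. The BMAL1 peaks at initiation factor genes had a median fold enrichment of 15.7 (n = 4, range 9.74 to 23.3), against 11.3 over the 317 BMAL1 peaks at coding promoters. With 1 canonical TSS per gene, which leaves out the EIF3E peak, the median at initiation factor genes was 12.6 (n = 3). The strongest of the 4 was at EIF3E (chr8:109455485-109456036), a subunit that was first known as the INT6 gene. It had a pileup of 48 and a fold enrichment of 23.3 (interval 17.2 to 30.9). It lay 41 bp upstream of an alternative EIF3E TSS and 64 bp upstream of the TSS of EMC2, a membrane protein insertase subunit, but 194820 bp from the canonical EIF3E TSS. The MAX peak there had a fold enrichment of 21.0 (interval 14.7 to 29.1) and a summit 50 bp away. At the canonical EIF3E TSS there was a MAX peak of 9.67 with an E-box 10.5 bp from its summit, and no BMAL1 peak. EIF3H, another EIF3 subunit, had its stronger MAX peak (13.4, with an E-box within 100 bp) likewise at an alternative TSS, 11066 bp from the canonical one and 317 bp downstream of the TSS of UTP23, and a weaker one of 8.46 at the canonical TSS.

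EIF5A2, a paralogue of EIF5A known for amplification in tumours, had a BMAL1 peak (chr3:170626399-170626846) with a pileup of 29 and a fold enrichment of 18.8 (interval 12.6 to 27.0). Its MAX peak was close to the median, with a pileup of 13 and a fold enrichment of 10.1 (interval 5.39 to 17.3). The summits were 18 bp apart and the promoter had 2 E-boxes separated by 19 bp. At EIF4A1 the BMAL1 peak (chr17:7475645-7476134) had a pileup of 43 and a fold enrichment of 12.6 (interval 9.13 to 17.0). It overlapped the upstream MAX peak, with summits 19 bp apart, and the intronic MAX peak had no BMAL1 partner. At EIF3A, the largest EIF3 subunit, the BMAL1 peak (chr10:120840138-120840487) was the weakest, with a pileup of 15 and a fold enrichment of 9.74 (interval 5.45 to 16.1). Its summit fell on the TSS, 42 bp from that of a MAX peak of 13.1 (interval 7.62 to 20.9). The intervals of the BMAL1 peaks of EIF3A and EIF3E did not overlap, and the remaining 2 peaks lay between. All 4 BMAL1 peaks had an E-box within 100 bp of the summit, as did 78.9% of all BMAL1 peaks at coding promoters (250 of 317).

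**Figure D4:**
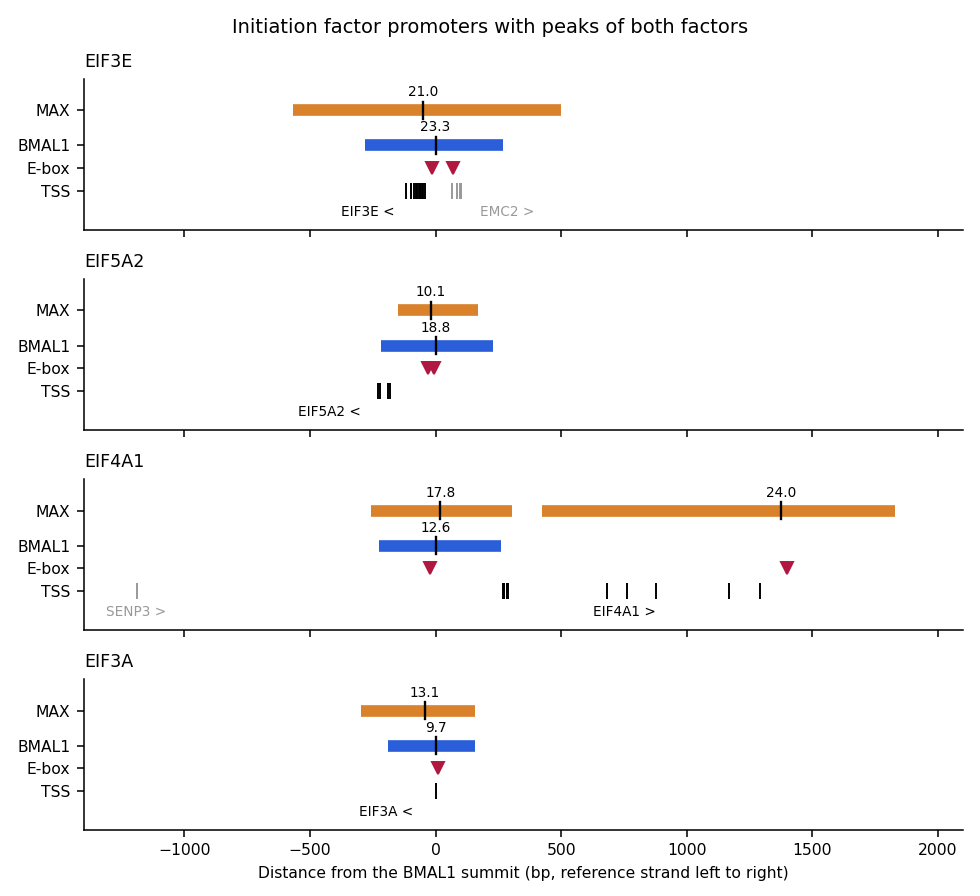
The 4 promoters with peaks of both factors, in bp from the BMAL1 summit. Bars span the MAX (orange) and BMAL1 (blue) peaks, black ticks on them are summits with the fold enrichment above, triangles are E-boxes inside the peaks, and ticks below are TSSs of the initiation factor gene (black) and of a neighbouring gene (grey), with the direction of transcription. The summits of the overlapping peaks are 18 to 50 bp apart, and the second MAX peak of EIF4A1 has no BMAL1 peak.

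Overlap with BMAL1 by at least 1 bp was found for 4 of the 48 MAX peaks (8.33%, interval 3.29 to 19.6), against 4.06% of all MAX peaks at coding promoters (296 of 7285), a share within the interval. Of the 51 other genes with a BMAL1 peak on their chromosome, 47 had the nearest BMAL1 summit over 100 kb from any TSS (92.2%), as did 88.1% of all protein-coding genes without a BMAL1 peak (17373 of 19726). It was under 25 kb away for 3 of the 51 (5.88%) and for 3.54% of all such genes.

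Most MAX summits had no E-box nearby. CACGTG, which reads the same on both strands, lay within 100 bp of the summit in 16 of the 48 peaks (33.3%, interval 21.7 to 47.5) at 14 genes, against 20.6% of all MAX peaks at coding promoters (1499 of 7285), just below the interval. When 1 canonical TSS per gene was used, the shares were 26.2% (11 of 42 peaks) and 20.2%. Of the 9 strongest peaks 7 had an E-box, the exceptions being EIF4B and EIF2S1, while of the 10 weakest only that of EIF4A3 had one. The median fold enrichment was 14.5 (range 8.58 to 29.6) for the peaks with an E-box and 10.6 (range 5.71 to 24.2) for those without, ranges that overlap widely. Over all coding promoters these medians were 12.5 (1499 peaks) and 9.76 (5786 peaks). In both sets the median was higher with an E-box, and neither difference was tested.

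MAX peaks occurred at genes with and without a CACGTG at the canonical TSS, and some genes with one had no peak. Within 300 bp of the canonical TSS it was found in 17 of the 56 genes (30.4%), against 12.6% of all protein-coding genes. A MAX peak was present at 13 of these 17 (76.5%) and at 27 of the 39 others (69.2%). Over all protein-coding genes the shares with a peak were 53.6% with the E-box and 33.7% without. The 4 genes with the E-box and no MAX peak were EIF4E, EIF2AK2, EIF3F and EIF4EBP3. EIF4E had 2, centred 69.5 and 222.5 bp upstream of the canonical TSS and separated by 147 bp, which are the last sequences printed above. The promoters without a MAX peak were similar in composition, with a median CpG ratio (observed over expected) of 0.859 against 0.876 for those with one, and a median GC content of 62.7% against 65.6%. Since no peak was listed, nothing is known of weaker binding below the threshold at this depth.

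The choice of peaks fixes that every summit lies within 1 kb of some TSS of its gene. Of the 48 summits, 42 were within 1 kb of the canonical TSS at a median distance of 164 bp, and 69% of the 42 (29) were upstream. For all promoter peaks near a canonical TSS the median was 184 bp and the upstream share 59.4%. The other 6 summits belonged to alternative start sites of EIF2AK3, EIF2B5, EIF3E, EIF3H, EIF4A1 and EIF4ENIF1. Some of these peaks lay near other genes. A TSS of another protein-coding gene lay within 1 kb of 15 of the 48 summits (31.2%). Among all MAX peaks at coding promoters, 17.9% lay within 1 kb of TSSs of 2 or more coding genes. These shares are not like for like, since a peak near 2 genes is more likely to enter through a list of genes. No excess at the initiation factor genes is read from them. Peaks of this kind cannot be assigned to one gene from their position. They included 5 of the 9 strongest peaks, at EIF3B, EIF3E, EIF2AK3, EIF2S1 and EIF3K.

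**Figure D5:**
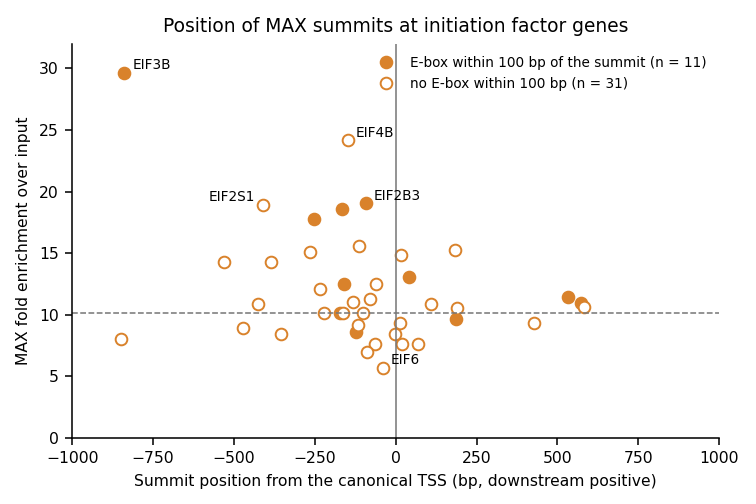
Position of the 42 MAX summits within 1 kb of the canonical TSS of an initiation factor gene (in bp, downstream positive) and their fold enrichment over input. Filled circles have an E-box within 100 bp of the summit (11 peaks), the vertical line is the TSS and the dashed line the median of all MAX peaks at coding promoters. Of the 42 summits, 29 lie upstream and 30 lie within 300 bp on either side, and the strongest, at EIF3B, lies 839 bp upstream.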

How the data were processed

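Reads were mapped by the authors to hg19 (BWA 0.6.2) and peaks were called by them in MACS2 2.0.9, separately for each antibody against the same input (versions from the submitters' processing notes and the file headers). For each peak the deposited lists give the pileup signal (coverage by tags extended to 300 bp), the fold enrichment (the ratio of pileup to local input background), and the -log10 of the p-value and of the q-value. Per the file headers the p-value cutoff was 1e-05, and at most 1 tag per position was kept for MAX and 2 for BMAL1. The paper's methods name a cutoff of 1e-08. Every listed peak was used here. Weaker sites may fall under the cutoff at this depth, so a missing peak means only that none passed the cutoff.

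TSSs came from GENCODE release 44 lifted to GRCh37, which is the same assembly as hg19. CACGTG was searched within 100 bp of each summit. The intervals on shares are Wilson intervals, and those on fold enrichment are exact Poisson intervals on the pileup with the background held fixed. Both cover counting error only. The Wilson intervals treat genes or peaks as independent draws, although 8 genes gave 2 MAX peaks each. The Poisson intervals treat tags as independent molecules, which they are not. No test was run, because there was 1 library per antibody. The genes and lists were chosen with earlier results of these data known. The rule for naming took genes with a BMAL1 peak, the 10 with the highest MAX fold enrichment, those with no MAX peak, and those with an E-box near the summit. It also took neighbours that share a summit, of which only some are named here. The rest are described by family, and those named beyond the rule were picked after their values were seen. The counting steps were tested on simulated data. The RefSeq promoter table was not used, as its build differs. Scripts ran in Python 3.11.15 (pysam 0.24.0, scipy 1.17.1, pandas 2.3.3, numpy 2.4.6, matplotlib 3.10.9).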

Additional observations from a re-analysis of the deposited data

How the results depend on the processing

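The counts and medians were recomputed with stricter p-value thresholds, other TSS windows and transcript sets, other E-box definitions and another measure of strength. Of 66 values, 62 stayed within the limits used for a change and 4 moved. These limits were wide, so the tally is a weak check. A fall from 40 to 27 genes with a MAX peak stayed within them, and for the BMAL1 median they spanned the whole range of its 4 peaks. At a -log10 p of at least 12, the genes with peaks of both factors fell to 2 and the MAX peaks that overlap a BMAL1 peak to 2, because the threshold removes the MAX peak of EIF5A2 and the BMAL1 peak of EIF3A. The other 2 values are the medians on the pileup scale, 19.5 for MAX and 36.0 for BMAL1, which have another unit. Genes with a MAX peak ranged from 27 (48.2%, against 23.4% of all genes, at the strictest threshold) to 42 (75%, against 41.5%, within 5 kb). With canonical TSSs only, BMAL1 peaks lay at 3 genes, since EIF3E is lost. Counting CACGCG as well, and leaving out EIF1AY, EIF3C and EIF3CL, were choices made after the data were seen, and gave 23 of 48 peaks (47.9%, against 36.4%) and 40 of 53 genes. No paired analysis was possible because there was 1 library per antibody. The pileups, with a median of 19.5 fragments, limit comparisons between single genes.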

Other observations

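MAX peaks also lay inside initiation factor genes beyond 1 kb of any of their start sites, at 3 genes. The scaffold gene EIF4G1 had one 3392 bp from the nearest TSS with a fold enrichment of 10.8, EIF4EBP2 one at 1421 bp with 9.59, and EIF4EBP1 one at 1059 bp with 9.31. None of the 3 had an E-box within 100 bp of the summit.

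Of 6 long non-coding RNA genes whose symbols start with EIF and a digit, 4 had a MAX peak within 1 kb of a TSS, namely EIF3J-DT, EIF2AK3-DT, EIF2B5-DT and EIF1B-AS1. Each shares a peak already counted above at the neighbouring gene EIF3J, EIF2AK3, EIF2B5 or EIF1B, so these are not separate observations. Over all long non-coding RNA genes the share was 12.3%. For BMAL1 the count was 0 of 6, against 0.684% of all long non-coding RNA genes. Of 82 EIF pseudogenes, 0 had a peak of either factor (upper bound of the Wilson 95% interval 4.48%), against 1.07% of all pseudogenes for MAX and 0.026% for BMAL1, so a count of 0 is near what all pseudogenes show.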
